A study of Homo sapiens with 15 samples.

Results

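The 48 genes described here carry out DNA replication or supply S phase, the stage of the cell cycle in which the genome is copied. They were taken from a fixed list of names, and all 48 were present in both deposited count tables, among 15230 genes listed in one and 12575 in the other. By role they comprised 11 genes of origin licensing, 6 of helicase activation, 9 polymerase and primase subunits, 6 of the sliding clamp and its loader, 3 subunits of the single-strand binding protein RPA, 2 of Okazaki fragment maturation, 5 of nucleotide supply, 3 G1/S regulators and 3 of chromatin assembly and histone mRNA. The RNA came from IHA, a line of fetal human astrocytes immortalized with SV40 and grown with serum and EGF. Doxycycline induced expression of IDH1-R132H, a mutant form of the cytosolic isocitrate dehydrogenase. The 15 samples were 3 untreated samples of batch tag b1, 3 untreated samples of b2, 4 samples at day 3 of doxycycline (all b2), 1 sample at day 7 in b1 and 4 at day 7 in b2. The genotype label reads WT IDH1 for all of them, the labels describe no cells given doxycycline without the inducible gene, and the untreated samples carry no day. Time in culture, doxycycline and mutant IDH1 thus cannot be told apart. No label states that each sample was its own culture, and p-values here therefore describe the spread among these libraries, which may be technical.

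Before S phase, ORC, CDC6 and CDT1 load the MCM2 to MCM7 helicase onto origins, a step called licensing. At the G1/S transition cyclin E kinase and the E2F transcription factors are active, CDC45 and the GINS complex turn the loaded helicase on, and the polymerases, the PCNA clamp, its RFC loader and RPA follow it. Ribonucleotide reductase, thymidylate synthase, thymidine kinase and dUTPase set the supply of DNA precursors. Many of these genes are known E2F targets, and E2F is held back by the RB proteins, which SV40 large T antigen binds. An immortalized SV40 line is therefore a limited model for the G1/S control of an astrocyte.

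The letters of E2F sites can be read around the start sites of part of these genes. Promoter windows of 300 bases (250 before to 50 after a start site, RefSeq, GRCh38.p14) were matched by symbol for 41 of the 48 genes, in 54 windows. MCM4, MCM5, GINS4, POLD3, RPA2, RPA3 and CCNE2 had no entry in that table. An E2F word, TTTCCCGC, TTTCGCGC, TTTGCCGC or TTTGGCGC on either strand, was found in 20 of the 41 genes (48.8%), against 3.99% of the 27305 genes in the table. In CDC6, GINS1 and MCM2 the E2F words lay after the start site. CCAAT on either strand, the core of the NF-Y site, was found in 24 of the 41 (58.5%), against 39.7%. Other words scanned were rarer than over all genes. TTTGAA or TTCGAA, the words of the CHR element, were in 3 of the 41 (7.32%), against 19.5%. TATAAA was in 3 of the 41 (7.32%), against 14.0%. A match is a description of the letters and does not show that a factor binds there. The 160 bases before the start site are shown for MCM6, with the most E2F words, and for E2F1, which codes for one of the factors, both without a call at day 7, and for CDT1 and TK1, which fell at day 7. Capitals mark the E2F words and the CCAAT words on either strand, and each sequence runs 5′ to 3′ on the gene's strand. Overlapping E2F words run together as one stretch of capitals.
E2F1, chr20:33686386-33686545, minus strand: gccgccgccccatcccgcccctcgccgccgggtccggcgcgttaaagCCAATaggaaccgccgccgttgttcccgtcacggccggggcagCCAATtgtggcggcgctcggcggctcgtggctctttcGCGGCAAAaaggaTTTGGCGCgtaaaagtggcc
MCM6, chr2:135876444-135876603, minus strand: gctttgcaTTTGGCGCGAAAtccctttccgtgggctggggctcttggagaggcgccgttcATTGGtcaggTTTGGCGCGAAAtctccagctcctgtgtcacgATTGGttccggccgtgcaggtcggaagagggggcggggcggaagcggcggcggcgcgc
CDT1, chr16:88803629-88803788, plus strand: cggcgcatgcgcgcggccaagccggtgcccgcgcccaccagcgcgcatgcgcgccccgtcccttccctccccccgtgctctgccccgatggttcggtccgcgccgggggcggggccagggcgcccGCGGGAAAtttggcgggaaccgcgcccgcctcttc
TK1, chr17:78187053-78187212, minus strand: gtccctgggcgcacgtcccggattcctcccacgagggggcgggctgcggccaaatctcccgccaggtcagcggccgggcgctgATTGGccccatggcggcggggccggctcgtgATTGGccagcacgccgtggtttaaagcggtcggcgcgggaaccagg
The MCM6 stretch held 4 E2F words, as 2 pairs that overlap, and 2 CCAAT words. The E2F1 stretch held 2 of each, and the CDT1 stretch held 1 E2F word. For TK1, which has 2 start sites in the table, neither window held an E2F word of this list, and the stretch shown held 2 CCAAT words.

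Depth was 2573290 to 5567651 UMIs (molecules counted by unique identifiers) per library in the table used for day 7, called the day 7 table, and 1816599 to 4656705 in the table used for day 3, called the day 3 and day 7 table. Levels are CPM, UMI counts divided by TMM-scaled library size. The 2 batches stood apart, so the day 7 test carried a batch term. Of 11 astrocyte markers, VIM, CD44, GJA1 and SOX9 were present (SOX9 at 13.99 to 27.1 CPM in the untreated libraries of the day 7 table). In those libraries S100B, SLC1A3 and NES stood at 1.46, 6.04 and 10.6 CPM at most. GFAP, AQP4, ALDH1L1 and SLC1A2 were not among the genes tested. Of markers of other cell types, KRT18 stood at 946 to 996 CPM and COL1A1 at 689 to 798 in untreated b1, and EPCAM at 2.43 at most. At day 7 SOX9 (log2 0.64 ± 0.15 SE) and CD44 (0.41 ± 0.07) rose among 6 astrocyte markers tested. Among markers of other cell types COL1A2 (-1.84 ± 0.08) and THY1 fell of 3 fibroblast markers tested, and KRT19 (-0.93 ± 0.16) and KRT8 of 3 epithelial ones. MBP (-0.43), the 1 oligodendrocyte lineage marker tested, fell too. Of 2 microglial markers CSF1R (1.52 ± 0.43) rose (edgeR adjusted p under 0.05 for each of these changes). CSF1R was near the floor, at 1 to 4 UMIs per library in untreated b2 and 5 to 14 at day 7 in b2. In b1 it had 4 to 13 UMIs untreated and 10 at day 7. The part of such differences in the results was not tested. The 7 b2 libraries held by both tables do not have the same counts there, and several of the 48 genes are among those that differ. In bulk RNA, fewer cells in S phase and less of an mRNA per cell cannot be told apart.

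At day 7, 42 of the 48 replication genes did not pass the test, while TK1, RFC4, POLD3, RFC1 and CDT1 fell and RPA2 rose, each by less than 1.5-fold. These 6 of 48 were called, meaning an adjusted p under 0.05 (Benjamini-Hochberg over all genes) in a quasi-likelihood fit by edgeR that held batch as a term. Of all 13371 genes tested, 14.6% were called, so the share among the 48 was near the background. The median log2 change of the 48 was -0.01, against -0.02 over all genes, with 21 above 0 and 27 below. Over all genes tested 47.5% of changes were above 0. For 43 of the 48 the 95% interval of the change lay within 1.5-fold in either direction, and the other 5 were PRIM1, POLD3, RPA1, RRM1 and CHAF1B. At an unadjusted p under 0.05 there were 9 genes, the other 3 being CDC45, RRM1 and RRM2. The summed level of the 48 was 5991 to 6058 CPM in untreated b1, 6007 to 6048 in untreated b2, 6062 in the b1 library at day 7 and 5635 to 6029 in the b2 libraries at day 7, so the b2 groups overlapped on this scale. In the day 3 and day 7 table they did not (6474 to 6605 CPM untreated, 6084 to 6447 at day 7). As a share of all UMIs with no TMM scaling the sums in the day 7 table were lower at day 7 in both batches, 0.592 to 0.602% against 0.552% in b1 and 0.621 to 0.626% against 0.577 to 0.586% in b2, and the median change of all genes without that scaling was -0.09. In the authors' deposited table, with their own DESeq2 fit, 7 of the 48 had an adjusted p under 0.05 at day 7: RPA2 higher, and CDT1, POLD3, RFC1, RFC4, RRM1 and TK1 lower. The share of all genes under that threshold in the authors' fit was not counted, so this number has no background.

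**Figure D1:**
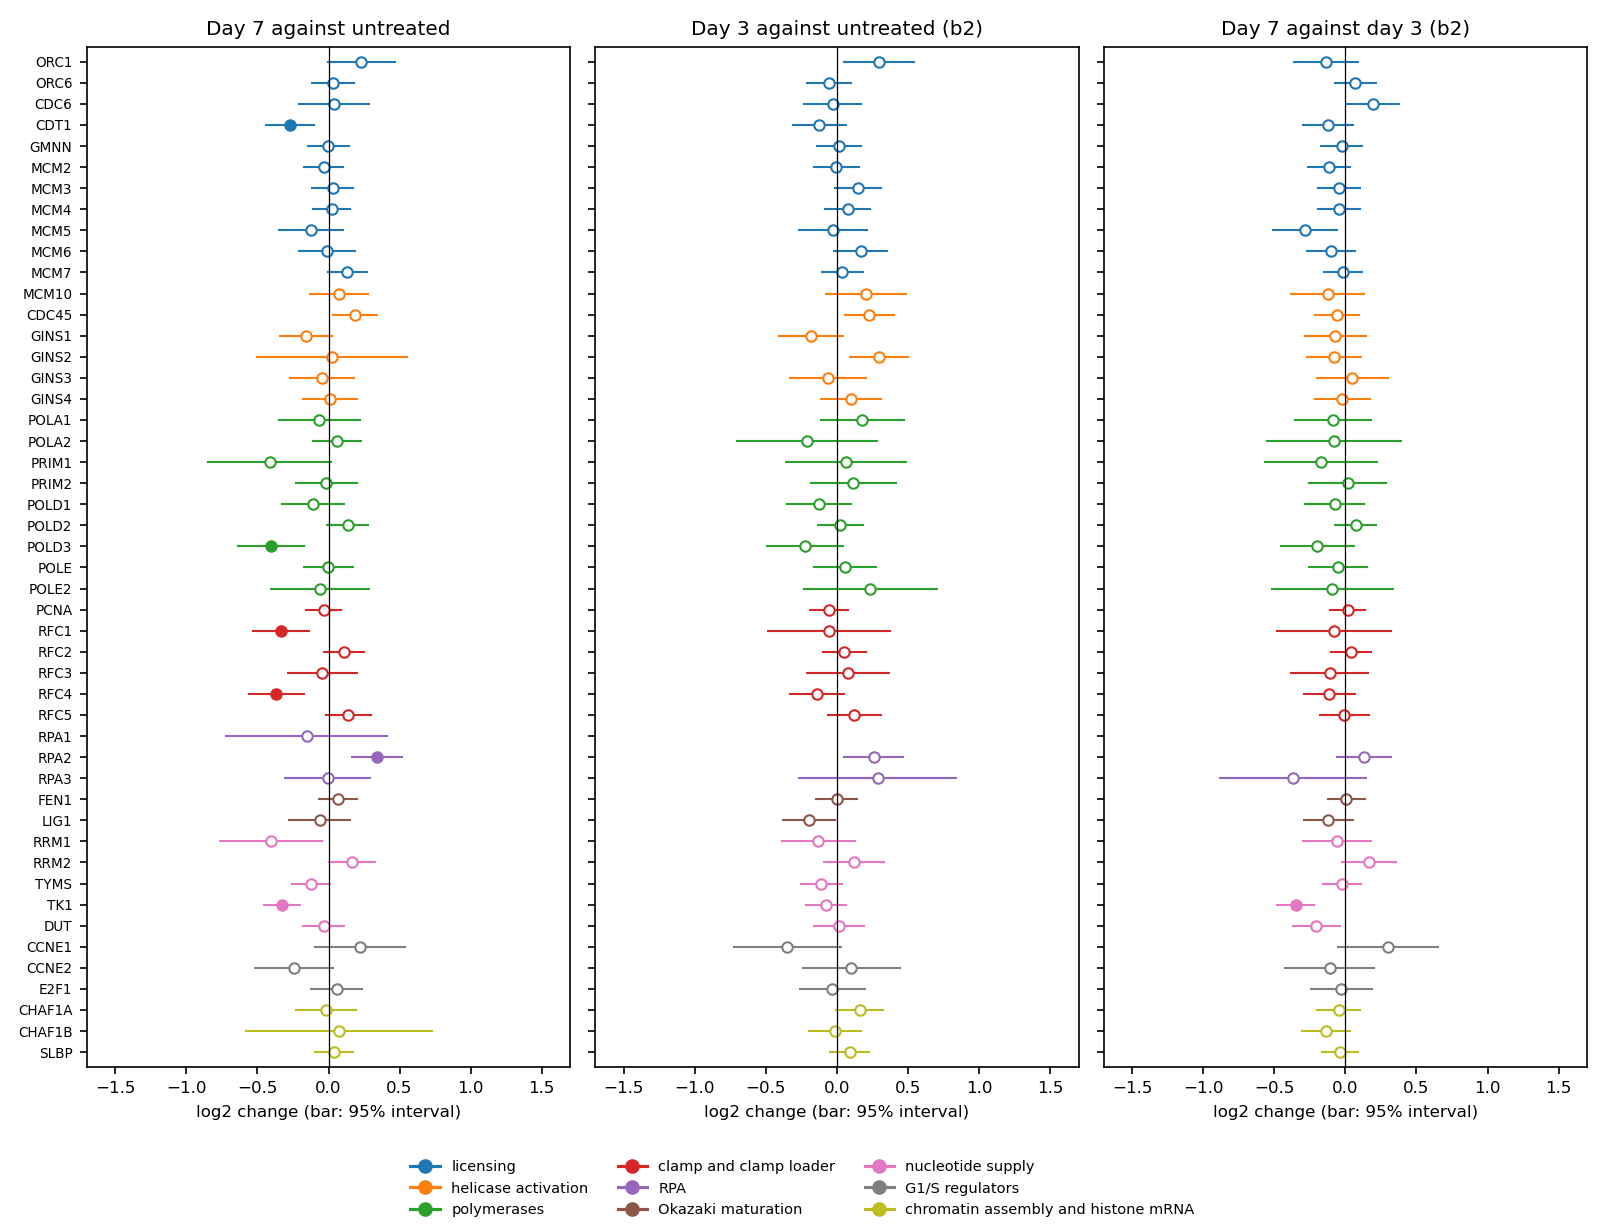
Log2 change of each of the 48 genes at day 7 against untreated (day 7 table, batch term), at day 3 against untreated and at day 7 against day 3 (both b2, day 3 and day 7 table). Points are edgeR estimates, bars are 95% intervals, colours give the role, and filled points passed at an adjusted p under 0.05: 6 in the first panel, 0 in the second and 1 in the third. RPA1 was not tested in the second table.

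Of the 11 licensing genes only CDT1 was called at day 7. CDT1 (chromosome 16, 88803213 to 88809258, plus strand, GRCh38), which loads the MCM helicase and is bound by geminin, stood at 117, 123 and 110 CPM in untreated b1 and at 90.5 in the b1 library at day 7. In b2 it stood at 80.5, 87.2 and 94.7 CPM untreated and at 73.2, 80.7, 64.8 and 79.3 at day 7. The b1 library lay below its controls, and the b2 groups overlapped in a narrow range. CDT1 fell 1.21-fold (log2 change -0.27 ± 0.08 SE, edgeR adjusted p = 0.0279), but it passed in only 7 of 11 fits that each left out 1 library and not without untreated b2-2, untreated b2-4, day 7 b1-13 or day 7 b2-19 (edgeR adjusted p up to 0.0946). Its partners did not pass. GMNN, geminin, had a log2 change whose 95% interval was -0.15 to 0.14. MCM7, a subunit of the helicase ring, stood at 547, 478 and 508 CPM in untreated b1 and 636 at day 7, and at 392, 390 and 409 in untreated b2 and 423, 420, 376 and 423 at day 7. In b1 the treated library was the highest, in b2 the groups overlapped, and the log2 change of MCM7 was 0.13 ± 0.07 (SE, edgeR adjusted p = 0.194). Among the 11 licensing genes 6 changes were above 0 and 5 below, from -0.27 (CDT1) to 0.23 (ORC1, the largest subunit of the origin complex).

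None of the 6 helicase activation genes was called at day 7. CDC45, the helicase cofactor, stood at 82.3, 79.8 and 89.4 CPM in untreated b1 and 94.5 at day 7, and at 93.6, 87.4 and 83.9 in untreated b2 and 103, 107, 91.3 and 104 at day 7. The treated b1 library was above its controls and the b2 groups overlapped by 1 library. The log2 change of CDC45 was 0.19 ± 0.08 (SE, edgeR adjusted p = 0.102). The 4 GINS subunits and MCM10, a helicase activator, ranged from -0.16 (GINS1) to 0.07 (MCM10).

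Of the 9 polymerase and primase subunits POLD3 fell and the other 8 did not pass. POLD3 (chromosome 11, 74493851 to 74669117, plus strand), an accessory subunit of polymerase delta, stood at 24.8, 31.0 and 30.7 CPM in untreated b1 and 25.4 at day 7. In b2 it stood at 59.2, 49.6 and 45.2 CPM untreated and at 38.5, 39.6, 41.5 and 29.6 at day 7. All 4 treated b2 libraries lay below the untreated ones, and the b1 library lay among its controls. POLD3 fell 1.32-fold (log2 change -0.40 ± 0.11 SE, edgeR adjusted p = 0.0171). It did not pass without untreated b2-1 or day 7 b2-20 (edgeR adjusted p up to 0.116). POLD2, the second accessory subunit, stood at 235, 238 and 250 CPM in untreated b1 and 268 at day 7, and at 195, 202 and 212 in untreated b2 and 254, 211, 200 and 222 at day 7, with overlap in b2. Its log2 change was 0.13 and that of the catalytic subunit POLD1 was -0.11 (edgeR adjusted p over 0.05 for both). For POLE, the catalytic subunit of the leading-strand polymerase, the 95% interval was -0.17 to 0.17.

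Of the 6 genes of the clamp and its loader, the loader subunits RFC4 and RFC1 fell. RFC4 (chromosome 3, 186789880 to 186807058, minus strand) stood at 81.6, 79.1 and 87.2 CPM in untreated b1 and 48.4 at day 7. In b2 it stood at 99.6, 91.0 and 90.8 CPM untreated and at 72.9, 92.0, 74.7 and 79.7 at day 7. The b1 library was far below its controls, and in b2 day 7 b2-18 reached the untreated range. RFC4 fell 1.29-fold (log2 change -0.37 ± 0.09 SE, edgeR adjusted p = 0.00991), and it did not pass without day 7 b1-13 (log2 change -0.23, edgeR adjusted p = 0.0801). RFC1 (chromosome 4, 39287456 to 39366375, minus strand), the large subunit, stood at 61.3, 57.8 and 57.6 CPM in untreated b1 and 38.5 at day 7, and at 156, 141 and 129 in untreated b2 and 115, 136, 129 and 95.1 at day 7. Again the b1 library lay below its controls while the b2 groups overlapped. RFC1 fell 1.26-fold (log2 change -0.34 ± 0.10 SE, edgeR adjusted p = 0.0195) and did not pass without untreated b2-1, day 7 b1-13 or day 7 b2-20. In the day 3 and day 7 table, which holds far fewer RFC1 UMIs for the same b2 libraries, the RFC1 change was -0.14 (edgeR adjusted p = 0.693) and the groups overlapped. PCNA, the clamp itself, stood at 427, 442 and 428 CPM in untreated b1 and 404 at day 7, and at 465, 448 and 465 in untreated b2 and 493, 428, 449 and 455 at day 7. Its b2 groups overlapped, and its log2 change had a 95% interval of -0.16 to 0.09.

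RPA2 was the single gene of the 48 that rose at day 7. RPA2 (chromosome 1, 27891524 to 27914746, minus strand), the middle subunit of RPA and a target of checkpoint kinases, stood at 100.3, 93.4 and 92.2 CPM in untreated b1 and 115 at day 7. In b2 it stood at 77.4, 78.1 and 75.3 CPM untreated and at 122, 88.3, 93.2 and 95.8 at day 7. Every treated library lay above every untreated library of its batch. RPA2 rose 1.27-fold (log2 change 0.34 ± 0.09 SE, edgeR adjusted p = 0.00800) and passed in all 11 fits that left out 1 library (log2 change 0.27 to 0.37). The 3 RPA subunits form 1 complex, and the other two did not pass. RPA3, the small subunit, stood at 24.1, 22.9 and 22.5 CPM in untreated b1 and 23.8 at day 7, and at 29.3, 20.4 and 17.9 in untreated b2 and 22.9, 26.3, 24.7 and 15.8 at day 7, with full overlap. RPA1 had only 131 UMIs in all over the 7 b2 libraries that both tables share, and its interval, -0.72 to 0.41, does not exclude a change of the size of RPA2's. GENCODE lists 3 RPA2 pseudogenes, and the treatment of reads that match several places is not stated in the labels.

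Of the Okazaki maturation genes neither was called at day 7 over both batches. FEN1, the flap endonuclease, stood at 194, 179 and 182 CPM in untreated b1 and 207 at day 7, and at 253, 251 and 248 in untreated b2 and 279, 238, 250.4 and 259 at day 7. For FEN1 the b1 library lay above its controls, the b2 groups overlapped, and the log2 change was 0.07 ± 0.07 (SE). LIG1, the ligase that seals the fragments, moved in opposite directions in the 2 batches and is described with them.

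TK1 showed the smallest p of the 48, and it was the 1 nucleotide supply gene of 5 that was called at day 7. TK1 (chromosome 17, 78174075 to 78187233, minus strand), the cytosolic thymidine kinase of the salvage pathway, stood at 898, 871 and 842 CPM in untreated b1 and 770 at day 7. In b2 it stood at 598, 608 and 607 CPM untreated and at 451, 451, 445 and 491 at day 7. The groups did not overlap in either batch, and the untreated b2 libraries lay within 10 CPM of each other. TK1 fell 1.26-fold (log2 change -0.33 ± 0.06 SE, edgeR adjusted p = 0.000744), with a log2 change of -0.39 to -0.31 when 1 library was left out, and passed in all 11 of those fits. In means, b2 went from 604 ± 5.21 (SD, n = 3) to 459 ± 21.4 CPM (SD, n = 4). The other 4 genes did not pass. DUT, the dUTPase, stood at 260.2, 289.9 and 270.3 CPM in untreated b1 and 306 at day 7, and at 429, 414 and 453 in untreated b2 and 446, 365, 381 and 402 at day 7, higher in the b1 library and overlapping in b2. TYMS, thymidylate synthase, had a log2 change of -0.12. The 2 subunits of ribonucleotide reductase had changes of opposite sign, RRM1 -0.41 ± 0.16 and RRM2 0.17 ± 0.08 (SE, edgeR adjusted p = 0.124 and 0.155). Without day 7 b1-13 the RRM1 change was -0.20.

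**Figure D2:**
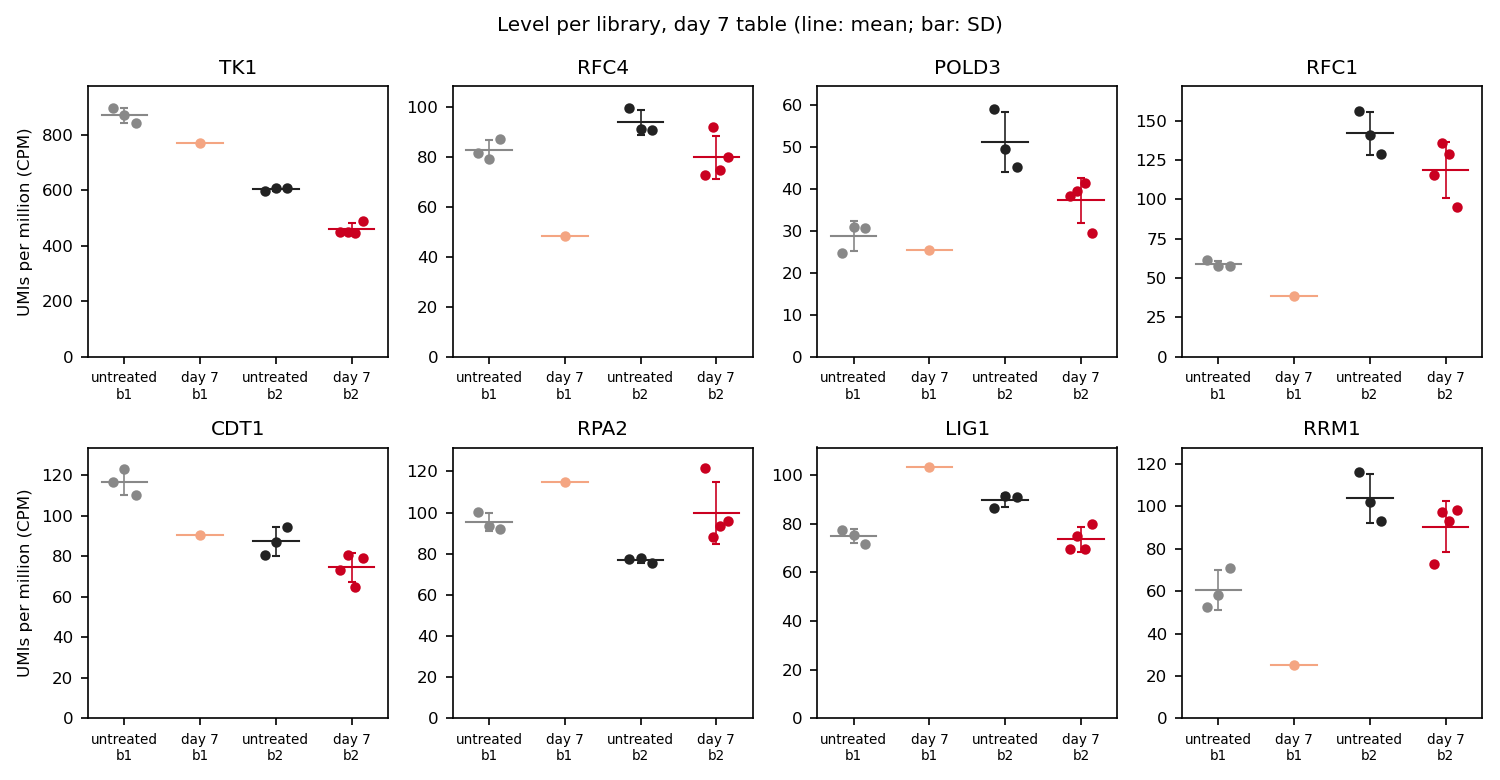
CPM of 8 genes in each library of the day 7 table, by treatment and batch. Points are libraries, lines are group means and bars are SDs; day 7 b1 is 1 library. TK1 is lower and RPA2 higher at day 7 in both batches, while RFC4 and RRM1 are below their controls in the b1 library and overlap in b2, and LIG1 lies above its controls in b1 and below them in b2.

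The G1/S regulators and the genes of chromatin assembly and histone mRNA did not pass at day 7. E2F1 stood at 90.1, 74.8 and 89.4 CPM in untreated b1 and 102 at day 7, and at 52.2, 48.9 and 55.2 in untreated b2 and 49.0, 54.7, 49.9 and 49.2 at day 7. The groups of E2F1 overlapped in b2, and its log2 change was 0.06 with a 95% interval of -0.12 to 0.24. The 2 cyclins E had changes of opposite sign, CCNE1 0.22 and CCNE2 -0.24, neither past the test. SLBP, which binds the stem-loop of histone mRNAs, stood at 150.4, 167 and 176 CPM in untreated b1 and 167 at day 7, and at 231, 226 and 224 in untreated b2 and 231, 237, 223 and 245 at day 7, with overlap in both batches. CHAF1A and CHAF1B, subunits of the CAF-1 histone chaperone, had log2 changes of -0.02 and 0.07. CHAF1B had only 98 UMIs over the 7 shared libraries of this table, and its 95% interval was -0.58 to 0.72.

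At day 3, none of the 47 genes tested was called, by edgeR, DESeq2 or limma-voom, against 3.51% of the 10586 genes tested by edgeR. These 4 treated and 3 untreated libraries are all b2. At an unadjusted p under 0.05 there were 5: GINS2, CDC45, RPA2 and ORC1 above 0 and LIG1 below, with edgeR adjusted p of 0.109 to 0.258. The 2 groups did not overlap for 7 of the 48 genes, 4 higher and 3 lower at day 3. These were the 5 above and, both lower, POLD3 (33.4 to 35.1 CPM untreated, 24.8 to 30.7 at day 3) and CCNE1 (13.4 to 14.7 and 10.7 to 11.7). The share of all genes without overlap was not counted, so this number has no background. ORC1 stood at 32.4, 32.3 and 32.6 CPM untreated and at 39.99, 40.2, 37.8 and 41.1 at day 3. GINS2 stood at 61.6, 62.8 and 50.4 CPM untreated and at 74.9, 72.0, 64.9 and 77.4 at day 3, levels read from this table, which holds far more GINS2 UMIs than the day 7 table. In words, every day 3 library lay above every untreated one for both genes. RPA2 stood at 88.9, 89.5 and 87.8 CPM untreated and at 99.1, 119.5, 100.4 and 104 at day 3, a log2 change of 0.26 ± 0.10 (SE). LIG1 stood at 93.1, 97.8 and 98.3 CPM untreated and at 82.8, 87.7, 88.3 and 77.8 at day 3. The median log2 change was 0.02, against 0.00 over all genes, and 43 of the 47 intervals lay within 1.5-fold. The authors' deposited table likewise has 0 of the 48 at an adjusted p under 0.05 for this comparison, with no background counted.

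TK1 was the 1 gene called between day 3 and day 7. It stood at 743, 752 and 745 CPM untreated, 769, 719, 628 and 716 at day 3 and 550.1, 549, 543 and 579 at day 7. The day 3 libraries of TK1 reached both above and below the untreated ones, and all 4 day 7 libraries lay below them all. From day 3 to day 7 TK1 fell 1.27-fold (log2 change -0.35 ± 0.06 SE, edgeR adjusted p = 0.000661) and passed in all 11 fits that left out 1 library. The day 7 libraries are in both this comparison and the day 7 one, so the 2 results share samples. This was 1 of 47 genes, against 5.07% of all genes tested. CHAF1B was the other gene whose day 3 and day 7 libraries did not overlap, at 82.4 to 85.5 CPM and 70.9 to 80.2 CPM, and it was not called. The share of all genes without such overlap was not counted. Of the 47, 36 changes were below 0, with a median of -0.06 against 0.01 over all genes. Over all genes tested 51.4% of changes were above 0. MCM5, DUT and CDC6 had an unadjusted p under 0.05 (log2 change -0.29, -0.20 and 0.19), and without day 7 b2-18 MCM5, a subunit of the helicase ring, was called too. CDC45 went from 114, 106 and 100.5 CPM untreated to 128, 121, 117 and 134 at day 3 and 125, 127, 109 and 120.1 at day 7, so its day 7 libraries overlapped both groups. The authors' deposited table has TK1 as the 1 member with an adjusted p under 0.05 between day 3 and day 7, again with no background counted.

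**Figure D3:**
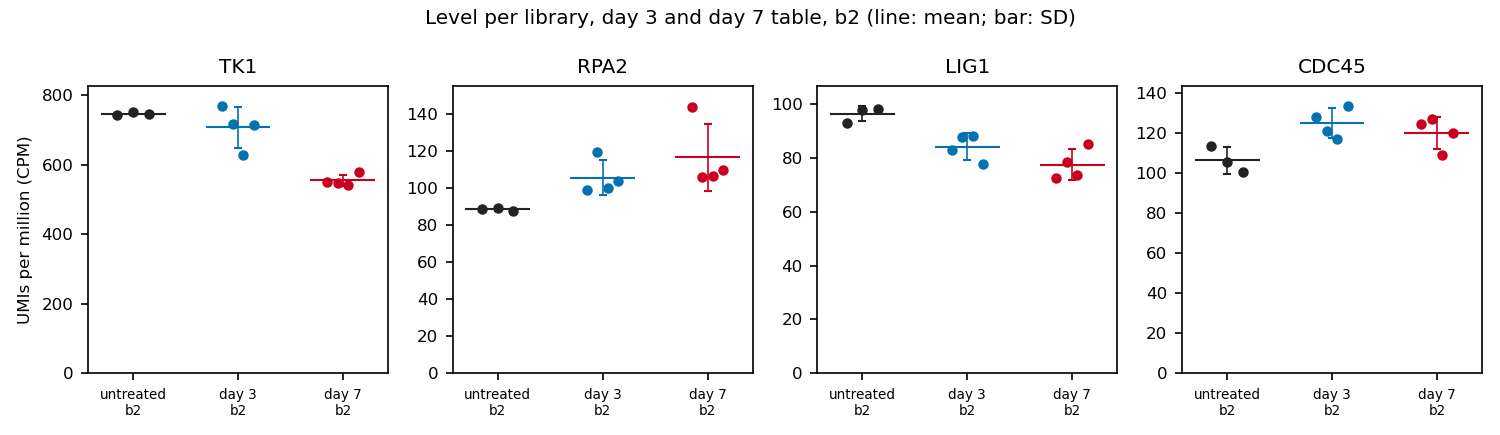
CPM of TK1, RPA2, LIG1 and CDC45 in each b2 library of the day 3 and day 7 table. Points are libraries, lines are means and bars are SDs over 3, 4 and 4 libraries. TK1 is lower at day 7 alone, RPA2 lies above and LIG1 below the untreated libraries at both times.

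More of the 48 genes were called between the batch tags than between treatments. In untreated cells 28 of the 48 were called between b2 and b1, 17 higher and 11 lower in b2, against 44.3% of all genes tested. The largest differences were in PRIM1, the catalytic primase subunit (b2 4.47-fold higher, log2 2.16 ± 0.29 SE), RFC1 (2.42-fold, 1.27 ± 0.11) and POLD3 (1.80-fold, 0.85 ± 0.14). PRIM1 went from 2.61 ± 0.368 CPM in b1 to 11.8 ± 2.87 CPM in b2 (SD, n = 3 in each), on 7 to 12 and 36 to 68 UMIs per library. The largest in the other direction were E2F1 (-0.72 ± 0.10), TK1 (-0.53 ± 0.07) and POLE (-0.52 ± 0.10). E2F1, itself a member of the E2F family, was lower in b2 by 1.64-fold, at 84.7 ± 8.62 CPM in b1 and 52.1 ± 3.18 CPM in b2 (SD, n = 3 in each). All 6 of these genes passed in each of 11 fits that left out 1 library (edgeR adjusted p up to 0.00152). Subunits of 1 complex did not move together: MCM2, MCM3 and MCM6 were higher in b2, MCM5 and MCM7 lower, and MCM4 did not pass. POLD1 and POLD3 were higher and POLD2 lower, RFC1 was higher and RFC2 lower, and of the primase PRIM1 was higher and PRIM2 lower (-0.46 ± 0.12 SE).

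**Figure D4:**
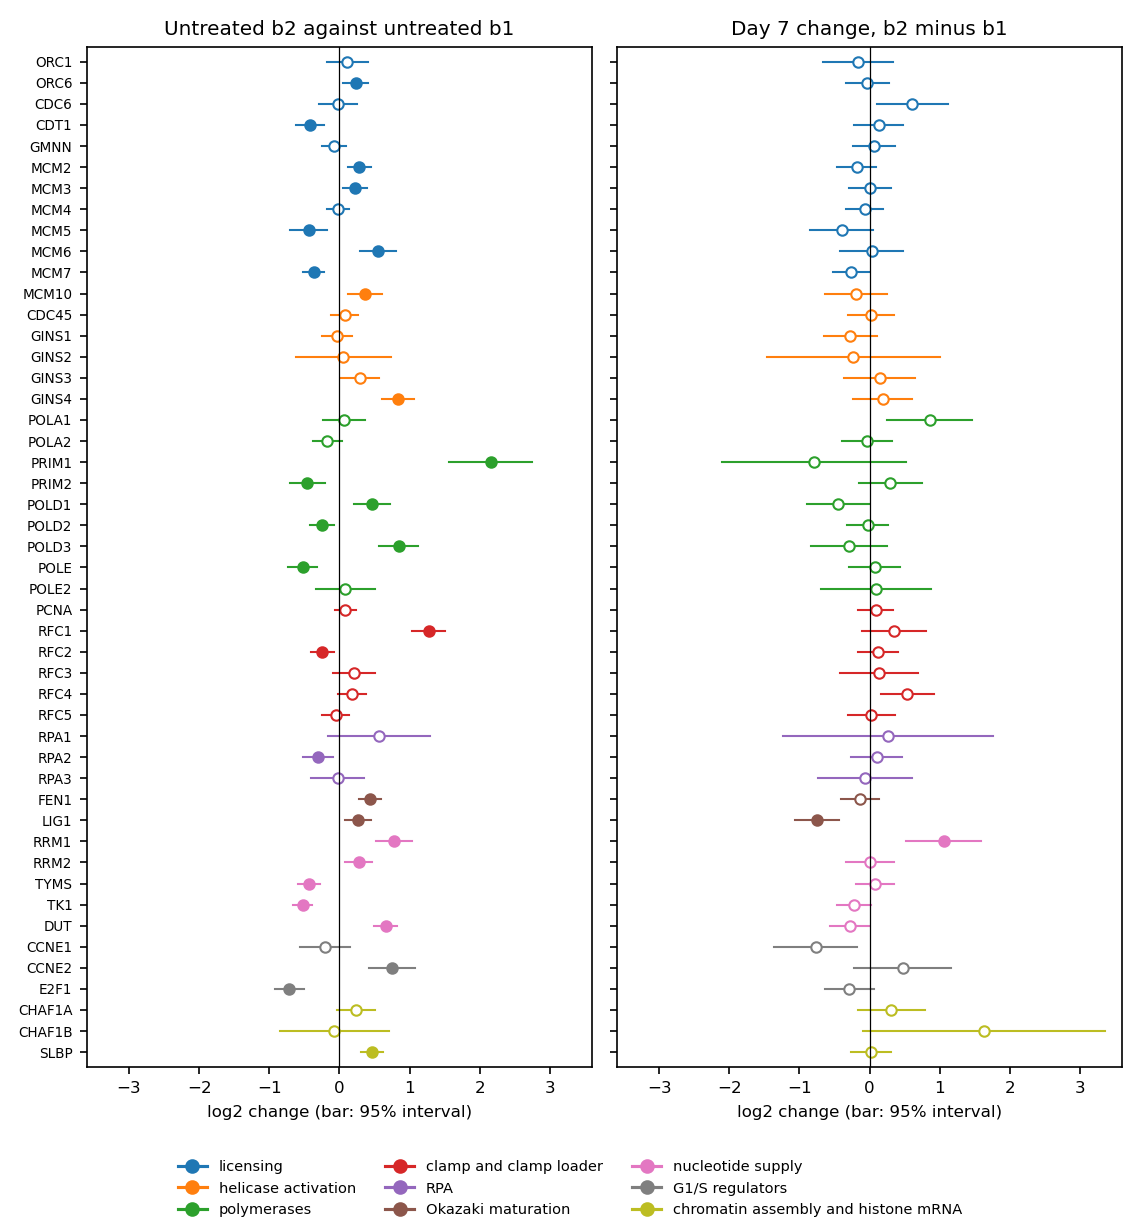
Log2 difference between untreated b2 and untreated b1 (left) and the difference between the day 7 changes of b2 and b1 (right) for the 48 genes. Points are edgeR estimates, bars 95% intervals, and filled points passed at an adjusted p under 0.05: 28 on the left and LIG1 and RRM1 on the right.

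LIG1 and RRM1 passed a test of the difference between the day 7 change of the b2 libraries and that of the single treated b1 library. With 1 library on the b1 side, whose spread is assumed to equal that of the other groups, the batch and that library cannot be told apart. LIG1 (chromosome 19, 48115445 to 48170603, minus strand) stood at 77.4, 75.2 and 71.7 CPM in untreated b1 and 103 at day 7, and at 86.6, 91.2 and 90.8 in untreated b2 and 69.7, 74.9, 69.4 and 80.0 at day 7. The b1 library lay above its controls and all 4 b2 libraries below theirs. The difference of the LIG1 log2 changes, b2 minus b1, was -0.75 ± 0.16 (SE, edgeR adjusted p = 0.00686, an interaction term) and passed in all 10 fits that left out another library. With b2 alone LIG1 had a log2 change of -0.27 (edgeR adjusted p = 0.0441), and in the day 3 and day 7 table, again b2, one of -0.32 (edgeR adjusted p = 0.0111). RRM1 (chromosome 11, 4094707 to 4138876, plus strand) stood at 52.6, 58.1 and 70.8 CPM in untreated b1 and 25.4 at day 7, and at 116, 102 and 93.3 in untreated b2 and 72.6, 97.5, 93.2 and 98.2 at day 7. The b1 library lay far below its controls, and the b2 groups overlapped. The difference for RRM1 was 1.05 ± 0.26 (SE, edgeR adjusted p = 0.0311), and it passed in 4 of those 10 fits (log2 0.92 to 1.15, edgeR adjusted p up to 0.0780) and not with limma-voom. These were 2 of 48 genes, against 2.44% of all genes tested. With b2 libraries alone 4 of the 48 were called at day 7, RPA2 higher and LIG1, POLD3 and TK1 lower. The calls of CDT1, RFC1 and RFC4 did not hold within b2 (log2 change -0.22, -0.25 and -0.22). The share of all genes called in the b2 fit is not given here, so this count has no background. In b1 alone TK1 and RPA2 had log2 changes of -0.18 and 0.27 (edgeR adjusted p = 0.181 and 0.163). With no batch term none of the 48 was called.

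Counts of the same libraries differed between the 2 tables for part of these genes. Over the 7 shared b2 libraries 27 of the 48 had totals within 1.1 times of each other, 10 differed by 1.1 to 1.5 times, 8 had over 1.5 times more UMIs in the day 7 table and 3 over 1.5 times more in the other. Over 10666 genes with at least 100 UMIs, 53.0% were within 1.1 times and 26.9% differed by over 1.5 times. CHAF1B went from 98 UMIs there to 1970, GINS2 from 95 to 1594, and CDC6 from 1029 to 1835. In the other direction POLA2, the accessory subunit of polymerase alpha, had 2210 and 262, DUT 12209 and 3830, RFC1 3839 and 1469, and POLD3 1293 and 712. TK1, with 15477 and 15644, RFC4, CDT1, RPA2 and PCNA differed by less than 1.1 times. Part of the listed genes overlap others in GENCODE v29: CHAF1B shares its strand with MORC3, PRIM1 with NACA, and GINS2 lies opposite GSE1. The labels do not state whether counting used strand, and 8 DUT pseudogenes are annotated. The part of such overlaps in the table differences was not tested. With the b2 counts of the day 3 and day 7 table, 5 of 47 were called at day 7, against 15.6% of the 10586 genes tested: RPA2 (log2 0.39) and RRM2 (0.29) higher, LIG1 (-0.32), POLD3 (-0.42) and TK1 (-0.43) lower. CDT1, RFC1 and RFC4 did not pass there (log2 change -0.25, -0.14 and -0.25). For this comparison the authors' deposited table has 3 of the 48 at an adjusted p under 0.05, RPA2 higher and LIG1 and TK1 lower, with POLD3 at 0.0740 and RRM2 at 0.118. The share of all genes was not counted for it.

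**Figure D5:**
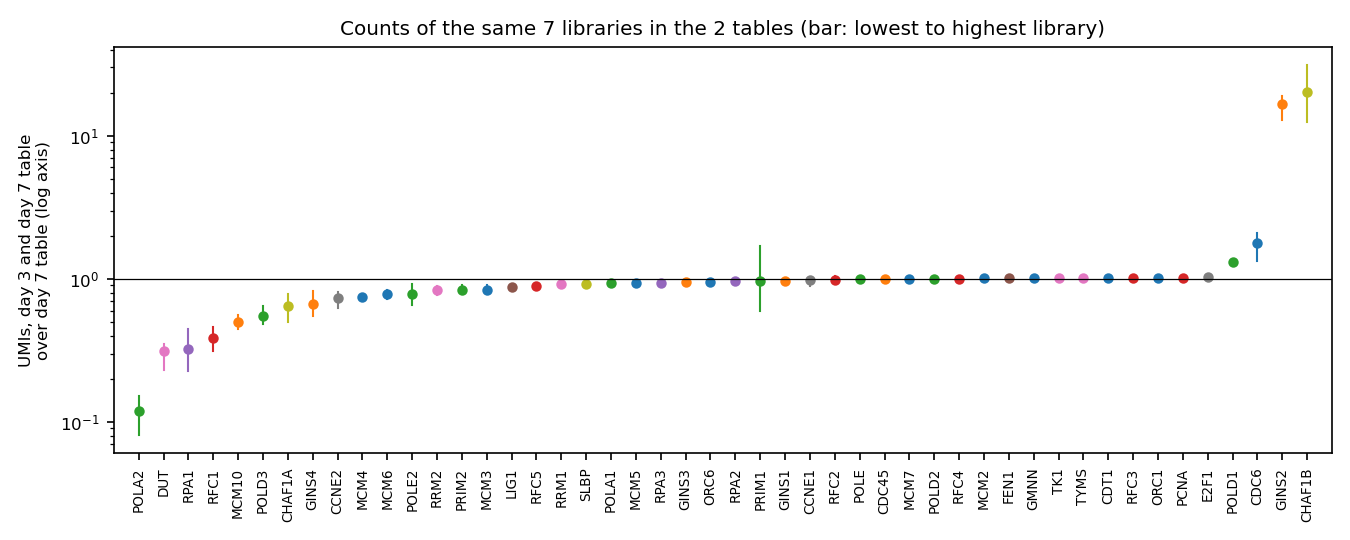
Ratio of UMIs in the day 3 and day 7 table to UMIs in the day 7 table, per gene, summed over the 7 libraries held by both (log axis). Points are ratios of the sums, bars run from the lowest to the highest library, and colours give the role as in the plots of log2 changes. CHAF1B and GINS2 lie over 10 times above 1 and POLA2 at 0.119.

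Other genes around replication were read from lists chosen with earlier results of these data known. Of 38 other replication genes tested (origin, polymerase, fork and chaperone factors) none was called at day 7 by edgeR, with 5 at an unadjusted p under 0.05. Of 31 other nucleotide supply genes 8 rose and 1 fell, where 8.14% of all genes tested at day 7 rose and 6.48% fell. APRT, which salvages adenine, rose by 0.42 ± 0.09, UMPS, the last enzyme of UMP synthesis, by 0.36 ± 0.08, and ADSL, of purine synthesis, by 0.30 ± 0.07 (log2 and SE). The others that rose were NME1, PAICS, DTYMK, CTPS1 and IMPDH1, and CAD, which carries out the first steps of pyrimidine synthesis, fell by 0.25 ± 0.07. The list's median log2 change was 0.03 against -0.02 over all genes.

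Of 34 other G1/S regulators 5 rose and 5 fell at day 7, against the same 8.14% and 6.48% of all genes, which also hold for the next lists. The D cyclins CCND3 (0.35 ± 0.07) and CCND1 (0.31 ± 0.07) rose, as did CDKN1A (0.33 ± 0.07), the CDK inhibitor p21, CDK4 and E2F4. TFDP2, an E2F partner (-0.34 ± 0.07), CDKN2C (-0.34 ± 0.08) and CDKN1B (-0.41 ± 0.10), CDK inhibitors of the INK4 and CIP families, fell, as did E2F7 and CDK2. Of 14 S phase checkpoint genes WEE1 (-0.50 ± 0.11), CDC25C (-0.35 ± 0.10) and RHNO1 (-0.35 ± 0.07) fell and none rose. Of 35 G2/M genes 9 fell and 2 rose. MKI67, the proliferation marker, fell by 0.45 ± 0.09, KIF23, a kinesin of cell division, by 0.34 ± 0.07 and NUSAP1, a spindle protein, by 0.57 ± 0.14, while CDC20 (0.35 ± 0.06) and PLK1 (0.24 ± 0.07) rose. The summed G2/M level was 5166 to 5232 CPM in untreated b1 and 4789 in the b1 library at day 7, and 5225 to 5640 in untreated b2 and 4964 to 5375 in b2 at day 7, where the groups overlapped. Of 12 quiescence-associated genes 4 fell, among them TXNIP (-1.23 ± 0.09), PDCD4 (-0.63 ± 0.10) and CDKN1B, and KLF2 rose (0.62 ± 0.16). Each of these calls is an edgeR adjusted p under 0.05 over all genes tested.

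At day 3 few genes of those lists were called. Among them IMPDH1 (log2 0.42 ± 0.08 SE), PLK1 and KIF20A, a mitotic kinesin (0.38 ± 0.08), rose, and TXNIP (-0.58 ± 0.11) fell. Of 15 S phase checkpoint genes 1 fell at day 3, where 1.84% of all genes tested rose and 1.67% fell. From day 3 to day 7 the histone chaperone ASF1B (-0.31 ± 0.09) was the 1 of 36 other replication genes called. MYBL2 (-0.49 ± 0.08), an activator of late cell cycle genes, TFDP2, CDKN1B and CDKN2C fell among 35 other G1/S regulators, and CCND1 (0.56 ± 0.07), CDK6 and CDKN1A rose. CTPS1 (0.38 ± 0.08) and GART rose among 28 other nucleotide supply genes, CDC25B and CDC25C fell among 15 checkpoint genes, and KIF20A and MKI67 fell among 34 G2/M genes. TXNIP fell again, by 0.60 ± 0.11. These calls too are edgeR adjusted p under 0.05 over all genes tested. Between day 3 and day 7, 2.76% of all genes tested rose and 2.31% fell.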

How the data were processed

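RNA of the 15 samples was made into bulk MARS-seq libraries, which count 3′ ends with T7 amplification and UMIs, per the labels' protocols. Both tables deposited by the authors hold UMI counts per gene and library, made with bcl2fastq, cutadapt, STAR 2.4.2a, HTSeq and DESeq2 on hg38 per the submitters' processing notes. The tables also hold log2 fold changes and adjusted p-values deposited by the authors, given as the earlier over the later group, and their sign was turned here. Another 55 columns of per-sample values (normalized, regularized log and batch-corrected, per the file headers) were not used. Of the untreated columns in the table with day 3, 2 have names shared by b1 and b2 samples. They were taken as b2, since every other column there is b2.

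Genes passed edgeR's filterByExpr by group, were TMM-normalized and were fitted in R 4.3.3 by the robust quasi-likelihood method of edgeR 4.0.16 (Benjamini-Hochberg over all genes, threshold 0.05). The day 3 and day 7 table had 1 fit. In the day 7 table the day 7 test used a fit with a batch term. The differences between batches, and between their day 7 changes, came from another fit with 1 mean per group of treatment and batch. The fits were also run on simulated counts drawn from 1 common gene profile. The simulated day 7 counts held no difference between batches, so that run does not test the batch term. Alternatives were DESeq2 1.42.0, limma-voom 3.58.1, other scalings and filters, single batches, no batch term, a replicate block and leaving out each library. Named genes were the members called in a treatment comparison, the most abundant other member of each role, the 3 largest differences between batches in each direction and up to 3 called genes per context list and direction (smallest p). The members and lists were chosen with earlier results of these data known. Positions are from GENCODE v29, and promoters from RefSeq. All 48 symbols were matched. Genes given by name in sets of 5 or fewer outside this rule were chosen after their values were seen.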

Additional observations from a re-analysis of the deposited data

Results flagged for a closer look

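In LIG1 and RRM1 the day 7 change differed between b2 and b1 by an interaction test, with a difference of log2 changes of -0.75 for LIG1 and 1.05 for RRM1 (edgeR adjusted p = 0.00686 and 0.0311). Only 1 b1 library was treated, so a property of that library and of the batch cannot be told apart.

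In 4 of 51 groups of 4 libraries checked, 1 library stood away from the other 3, and chance marks about 1 in 20 such groups. TK1 stood at 491 CPM in day 7 b2-20 and at 445 to 451 in the other 3 (day 7 table). MCM7 stood at 376 CPM in day 7 b2-19 and at 420 to 423 in the others. In the day 3 and day 7 table RPA2 stood at 144 CPM in day 7 b2-17 against 106 to 110.2, and RFC4 at 111 CPM in day 7 b2-18 against 89.6 to 93.3. In the day 7 table TK1 was called without day 7 b2-20 and RPA2 without day 7 b2-17.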

How the results depend on the processing

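At day 7, 6 of the 48 genes were called, and 4 to 7 under each alternative but one. With no batch term 0 were called, and RFC1 turned to a log2 change of 0.035. With b1 alone, where the single treated library is assumed to vary like the untreated ones, LIG1 turned to 0.46. TK1 and RPA2 were called in the fits with a batch term under every tool, scaling and filter run and without each library, but not with b1 alone. With library sizes alone the median change of all genes moved from -0.02 to -0.09. The share of all genes called under each alternative is not given here, so the counts of calls have no background. Leaving out 1 library gave 4 to 6 calls at day 7, 0 at day 3, 1 to 2 between day 3 and day 7, 23 to 30 between the batches and 1 to 2 for the difference in the day 7 change, which limma-voom called for 1 gene. RFC1 and RRM1, not called with day 3, changed sign there. At day 3 RFC1 ran from -0.18 to 0.19 as single libraries were left out, above 0 without untreated b2-1 or day 3 b2-11, and turned to 0.31 without both untreated columns of shared name, where RRM1 turned to 0.030. Between day 3 and day 7 RFC1 ran from -0.19 to 0.0058 (above 0 without day 3 b2-9) and RRM1 from -0.17 to 0.028 (above 0 without day 7 b2-17). The cause of these turns was not tested. Untreated samples of b1 and b2 share the numbers 1 and 2 alone. A replicate block on those 4 libraries gave 26 calls, against 27 without it. Same-numbered deviations did not correlate (r = -0.000344), but 2 libraries per batch cannot settle whether the numbers pair them. Depth limits RPA1, CHAF1B, GINS2 and PRIM1, with under 30 UMIs per library on average in the day 7 table. The filter by treatment, the fits without the shared columns or with b1 alone and the unblocked fit were chosen after seeing the data.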
